A study of Mus musculus with 12 samples.

Results

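Claudins are the membrane proteins that form tight junction strands between epithelial cells, and 9 members of the family were followed through 12 RNA-seq libraries of mouse cells: Cldn1, Cldn3, Cldn4, Cldn5, Cldn6, Cldn7, Cldn9, Cldn11 and Cldn12. They are 9 of the 23 claudin genes in a deposited expression table of 21253 genes and were taken from it by gene symbol. The members were chosen by their measured FPKM in these same libraries, so their levels and differences are given as a description, with no test. FPKM, a count of sequenced fragments scaled to transcript length and to library size, is corrected for length, so levels of different claudins can be set side by side.

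The study compared wild-type (WT) E14 mouse embryonic stem cells (mESC) and a previously generated mESC line labelled EED-/-, each sequenced as stem cells (n = 2 libraries per genotype) and after differentiation to anterior neural progenitors (AntNPC, n = 4 per genotype). EED is a core subunit of Polycomb repressive complex PRC2, which represses genes through methylation of histone H3. The AntNPC were made over 5 days, with bFGF at 10 ng/ml in the first 3 days and the Wnt pathway inhibitor Xav939 at 5 uM from day 2, in both genotypes. Each genotype is 1 cell line, so an effect of genotype and a difference between these lines cannot be told apart, and the labels do not say whether replicates came from separate cultures. The p-values below therefore measure the spread between these libraries, which may be technical. In the main fit that spread is pooled over all 12 libraries. Standard errors and p-values in either cell type thus carry the spread of the other as well.

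The level of the targeted gene did not follow the label. Eed FPKM read 66.2 and 162.7 in WT stem cells, 643.9 and 375.5 in stem cells labelled EED-/-, 42.0, 54.7, 63.4 and 61.7 in WT AntNPC, and 181.9, 171.3, 201.9 and 186.2 in AntNPC labelled EED-/-. Read counts of Eed in AntNPC, averaged by the authors in the authors' deposited table, go the other way, 3723.13 in WT and 2495.77 in EED-/-, and the table does not show which part of the gene was removed. Genotypes below are those of the labels.

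Several libraries stood apart. Summed FPKM was 864240 in WT mESC replicate 2 and 788750 in EED-/- mESC replicate 1, against 453550 to 542960 in the other 10 libraries. No source used here gives the number of reads per library. WT AntNPC replicate 1 differed from the other 3 WT AntNPC libraries in several claudins, as described for each. The summed level of 10 neural progenitor markers was 449.5 to 543.6 FPKM in WT AntNPC and 189.2 to 228.4 in EED-/- AntNPC, with all 10 at a mean of at least 1 FPKM in both. The sum of 10 pluripotency markers was 1712 to 3658 in WT mESC, 1739 to 2265 in EED-/- mESC, 26.6 to 70.4 in WT AntNPC and 169.5 to 278.4 in EED-/- AntNPC.

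A claudin spans the membrane several times, and its extracellular loops pair with claudins of the neighbouring cell, so that the set of claudins a cell makes sets which ions cross the sheet. Cytoplasmic ZO proteins tie the strands to actin, and occludin, tricellulin and JAM proteins share the junction. Neural plate cells give up occludin and epithelial claudins as the neural tube forms, while stem cells and the early embryo carry an epithelial set. As this was bulk RNA, fewer claudin-making cells and less claudin RNA per cell cannot be told apart.

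In AntNPC the family was divided by genotype. Cldn6, Cldn4, Cldn7 and Cldn3 were low in WT AntNPC and 4.80-fold (Cldn3) to 33.4-fold (Cldn6) higher in mean FPKM in EED-/- AntNPC. The Cldn3 ratio was 9.08 without WT AntNPC replicate 1. Cldn12 differed little between genotypes. Cldn9 lay above every EED-/- AntNPC library in 3 of the 4 WT libraries and below every one in WT AntNPC replicate 1. Cldn1, Cldn5 and Cldn11 stayed under 1.5 FPKM in every library. Summed over the 23 claudins, FPKM was 147.4 ± 6.18 in WT mESC (SD, n = 2), 555.2 ± 337.7 in EED-/- mESC (SD, n = 2), 38.2 ± 5.59 in WT AntNPC (SD, n = 4) and 225.2 ± 14.2 in EED-/- AntNPC (SD, n = 4). The 9 members made up 89.97% to 99.38% of that sum in each library.

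**Figure D1:**
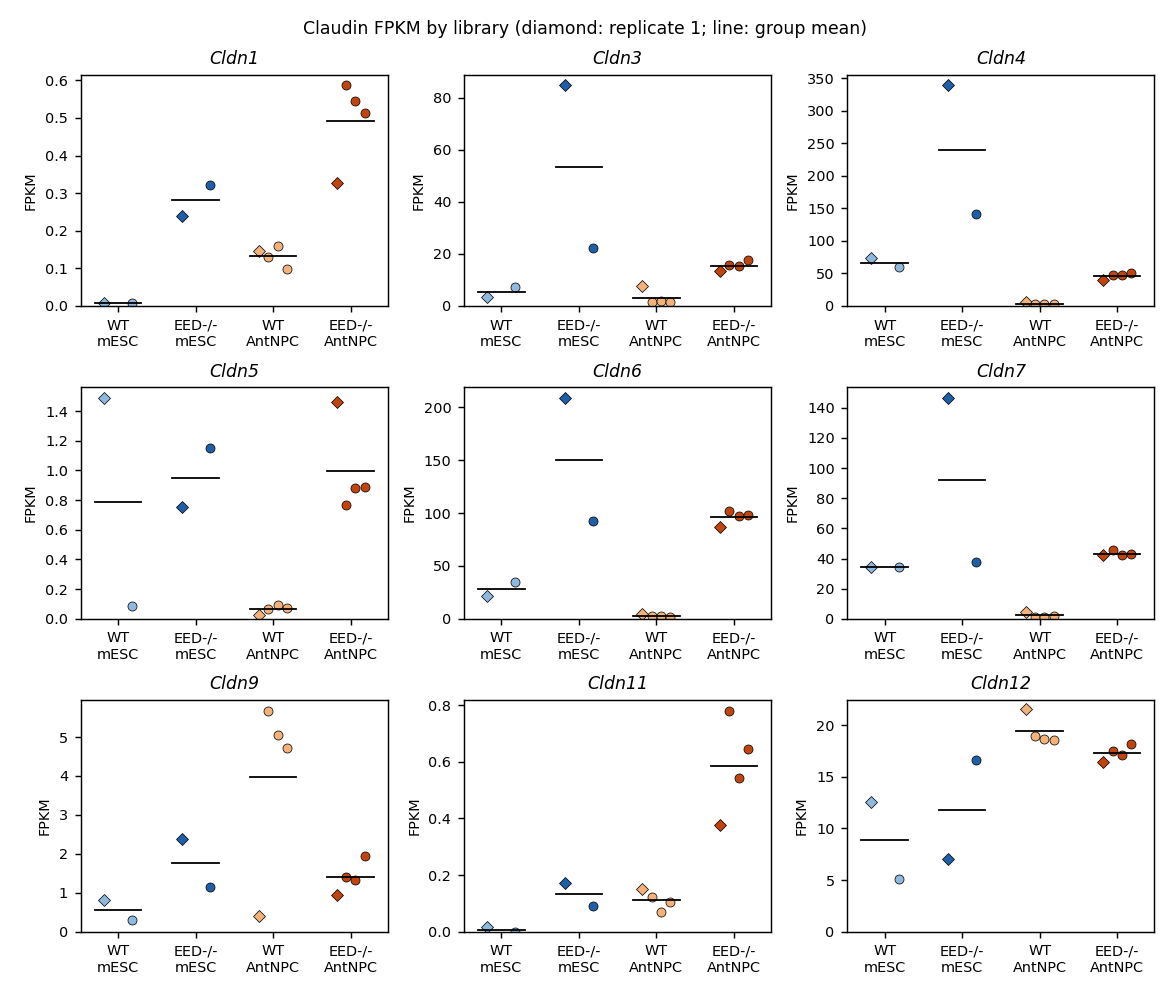
FPKM (linear axes from 0, one scale per panel) of each of the 9 claudins in the 12 libraries, by group, with diamonds for replicate 1, circles for the other replicates and a line at the group mean. Cldn3, Cldn4, Cldn6 and Cldn7 are low in all 4 WT AntNPC libraries and higher in all 4 EED-/- AntNPC libraries, while EED-/- mESC replicate 1 lies far above replicate 2 in the same 4 genes.

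Cldn6, a claudin of early embryonic epithelia and stem cells, showed the widest gap. Its gene lies on chromosome 17 of GRCm38 (23679249 to 23682446, plus strand). In WT AntNPC it stood at 4.23, 2.42, 2.70 and 2.14 FPKM, and in EED-/- AntNPC at 86.6, 102.3, 96.7 and 98.3. Every EED-/- AntNPC library was thus above every WT library, with a ratio of means of 33.4 and a difference of 4.67 ± 0.26 on the log2(FPKM + 1) scale (SE), a scale that understates the change of low genes. In mESC it stood at 21.4 and 35.0 FPKM in WT and at 208.4 and 92.2 in EED-/-, a difference of 2.30 ± 0.36 (SE) and a ratio of means of 5.34, which was 3.27 without EED-/- mESC replicate 1. The EED-/- AntNPC level overlapped the EED-/- mESC level, which WT AntNPC did not do with WT mESC. The authors' deposited table gives mean read counts for Cldn6 of 190.96 in WT AntNPC and 5960.96 in EED-/- AntNPC.

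Cldn4, which limits the passage of sodium in many epithelia, was the most abundant claudin of mESC. It lies on chromosome 5 (134945119 to 134946934, minus strand). Its level was 73.6 and 59.8 FPKM in WT mESC, 339.0 and 140.9 in EED-/- mESC, 6.77, 2.28, 2.75 and 2.93 in WT AntNPC, and 39.8, 48.1, 47.8 and 49.9 in EED-/- AntNPC. No WT library overlapped an EED-/- library of the same cell type. The difference was 3.42 ± 0.30 in AntNPC and 1.71 ± 0.43 in mESC on the log2(FPKM + 1) scale (SE), and the mESC value was 1.08 without EED-/- mESC replicate 1. Unlike Cldn6, it stayed below its stem cell level in both genotypes after differentiation.

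Cldn7, a basolateral claudin that binds EpCAM, held 34.5 and 34.5 FPKM in WT mESC and 146.3 and 37.8 in EED-/- mESC. It lies on chromosome 11 (69964779 to 69967885, plus strand). In AntNPC it stood at 4.54, 1.42, 1.38 and 2.11 FPKM in WT and at 42.3, 45.7, 42.2 and 43.1 in EED-/-, so that the EED-/- libraries lay within a narrow band far above WT. The AntNPC difference was 3.81 ± 0.37 on the log2(FPKM + 1) scale (SE), with a ratio of means of 18.4. The mESC difference of 1.09 ± 0.53 (SE) rested on 1 library, as it was 0.13 without EED-/- mESC replicate 1 and 2.05 without replicate 2.

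Cldn3, a sealing claudin encoded next to Cldn4 on chromosome 5 (134986214 to 134987472, plus strand), was the lowest of these 4 in EED-/- AntNPC. It stood at 7.81, 1.64, 1.78 and 1.71 FPKM in WT AntNPC and at 13.6, 15.7, 15.3 and 17.5 in EED-/- AntNPC. WT replicate 1 was the one library that came near the EED-/- range, and the difference was 2.18 ± 0.46 on the log2(FPKM + 1) scale (SE). In mESC it stood at 3.48 and 7.38 FPKM in WT and at 84.8 and 22.3 in EED-/-, the largest mESC difference among the members tested, 2.87 ± 0.65 (SE).

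The sequence before the start of each of these 4 genes is shown for 2 reasons. All 4 were higher in every EED-/- AntNPC library than in every WT AntNPC library, and PRC2 is known to sit at CpG-rich promoters. The sequences come from RefSeq (GRCm38.p6), in which 8 of the 9 members matched, all but Cldn9. Each line reads 5′ to 3′ toward the gene on its own strand, in lower case with CpG dinucleotides in capitals, and holds the part of the 250 bases before the first listed start that overlaps no annotated exon. The stretches are chr17:23679115-23679248 (plus strand) for Cldn6, chr5:134946935-134947184 (minus strand) for Cldn4, chr11:69964529-69964778 (plus strand) for Cldn7 and chr5:134985964-134986213 (plus strand) for Cldn3.
Cldn6: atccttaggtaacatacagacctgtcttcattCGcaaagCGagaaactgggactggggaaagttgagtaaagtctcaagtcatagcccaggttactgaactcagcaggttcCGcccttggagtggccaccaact
Cldn4: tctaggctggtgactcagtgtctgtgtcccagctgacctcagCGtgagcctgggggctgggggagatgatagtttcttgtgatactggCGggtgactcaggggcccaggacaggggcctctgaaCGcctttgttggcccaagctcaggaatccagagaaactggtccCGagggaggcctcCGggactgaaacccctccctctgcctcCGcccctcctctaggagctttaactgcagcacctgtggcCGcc
Cldn7: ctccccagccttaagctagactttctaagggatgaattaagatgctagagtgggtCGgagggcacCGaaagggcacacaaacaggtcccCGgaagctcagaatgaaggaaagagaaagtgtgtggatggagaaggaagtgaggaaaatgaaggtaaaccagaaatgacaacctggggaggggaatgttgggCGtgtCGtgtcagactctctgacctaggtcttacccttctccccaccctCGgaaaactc
Cldn3: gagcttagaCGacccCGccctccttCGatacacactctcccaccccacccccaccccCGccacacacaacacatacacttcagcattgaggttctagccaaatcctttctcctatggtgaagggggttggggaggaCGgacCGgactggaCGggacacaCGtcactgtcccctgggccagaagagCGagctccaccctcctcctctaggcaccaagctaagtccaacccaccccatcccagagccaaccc

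Counted over the full 250 bases, there were 9 CpG dinucleotides before Cldn6, 7 before Cldn4, 6 before Cldn7 and 9 before Cldn3. Across 32851 mouse promoters of the same length the median was 6 and the quartiles 2 and 16, so these 4 lay at or above the median and below the upper quartile. Cldn1, Cldn5 and Cldn11 were also higher in every EED-/- AntNPC library and had 14, 12 and 19. Cldn1 and Cldn11 stayed under 1 FPKM throughout. Cldn12, which was expressed in every library, had 6, 16 and 20 before its 3 listed starts. The CACCTG E-box, searched on both strands, occurred in the windows of Cldn4, Cldn6 and the second start of Cldn7, and in 17.2% of all promoters. The Cldn6 match lies inside the annotated gene, outside the stretch printed above, which holds 3 of the 9 CpG. In the second Cldn7 window the longest part free of annotated exon is 29 bases and holds no match. The Grainyhead-like core AACNGGTT, searched on both strands, was found for Cldn5 only among the members and in 1.79% of all promoters. A match is a run of letters in this window and no more.

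Cldn12, an unusual claudin that takes part in calcium passage in the gut, kept a similar level in both AntNPC groups. It lies on chromosome 5 (5489537 to 5514958, minus strand), far from Cldn3 and Cldn4. It stood at 21.6, 18.99, 18.7 and 18.6 FPKM in WT AntNPC and at 16.4, 17.5, 17.1 and 18.2 in EED-/- AntNPC. The groups did not overlap, but the difference of -0.16 ± 0.27 on the log2(FPKM + 1) scale was smaller than its SE. That SE is pooled over the libraries of both cell types. In mESC the groups overlapped, at 12.6 and 5.14 FPKM in WT and 6.995 and 16.7 in EED-/-, and the difference of 0.38 ± 0.38 (SE) ranged from -0.20 to 0.95 when 1 library was left out.

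Cldn9, an inner ear and embryonic claudin, ran opposite to its neighbour Cldn6 in AntNPC. It lies on chromosome 17 (23682584 to 23684026, minus strand), tail to tail with Cldn6 and 138 bases from it. It stood at 0.403, 5.68, 5.04 and 4.72 FPKM in WT AntNPC and at 0.949, 1.40, 1.33 and 1.95 in EED-/- AntNPC. WT replicate 1 lay below every EED-/- library and the other 3 WT libraries above every one, so the direction within the replicate 1 pair was the reverse of that in replicates 2, 3 and 4. The pooled difference was -0.83 ± 0.43 on the log2(FPKM + 1) scale (SE), and -1.36 without WT AntNPC replicate 1. In mESC it stood at 0.805 and 0.307 FPKM in WT and 2.39 and 1.16 in EED-/-, a difference of 0.82 ± 0.61 (SE) that was 0.49 without EED-/- mESC replicate 1 and 0.24 after quantile normalization. No source used here says whether reads were counted by strand, so reads running past the end of one gene could be assigned to the other.

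Cldn5, the main claudin of the blood-brain barrier, was low throughout. It lies on chromosome 16 (18776847 to 18778262, plus strand) and stood at 0.0256, 0.0681, 0.0953 and 0.0709 FPKM in WT AntNPC and at 1.46, 0.767, 0.882 and 0.891 in EED-/- AntNPC. All 4 EED-/- libraries were above all 4 WT libraries, and the difference was 0.90 ± 0.22 on the log2(FPKM + 1) scale (SE), 2.72 with a pseudocount of 0.1 and 0.44 after quantile normalization. In mESC the WT libraries stood at 1.49 and 0.0833 FPKM, on both sides of the EED-/- values of 0.752 and 1.15. The mESC difference of 0.24 ± 0.31 (SE) turned to -0.28 after quantile normalization, to -0.12 after centring each library on its median and to -0.36 without WT mESC replicate 2.

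The summed level of 10 endothelial markers was 20.2 to 33.7 FPKM in WT AntNPC and 40.9 to 46.4 in EED-/- AntNPC. It was higher in mESC, at 84.29 to 84.86 FPKM in WT and 81.15 to 97.49 in EED-/-. Egfl7 was the highest, with a mean of 35.05 FPKM in EED-/- AntNPC, and Emcn was at 0 in WT AntNPC and both stem cell groups. The part of endothelial cells in the Cldn5 result was not tested.

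Cldn1, the claudin that seals the epidermis, and Cldn11, the claudin of myelin and Sertoli cells, were the lowest members and did not reach 1 FPKM in any library. Cldn1 lies on chromosome 16 (26356642 to 26371841, minus strand) and stood at 0.00813 and 0.00839 FPKM in WT mESC, 0.239 and 0.322 in EED-/- mESC, 0.145, 0.129, 0.159 and 0.0990 in WT AntNPC, and 0.327, 0.587, 0.546 and 0.513 in EED-/- AntNPC. Cldn11 lies on chromosome 3 (31149920 to 31164324, plus strand) and stood at 0.0149 and 0 FPKM in WT mESC, 0.174 and 0.0915 in EED-/- mESC, 0.150, 0.124, 0.0694 and 0.103 in WT AntNPC, and 0.378, 0.779, 0.542 and 0.647 in EED-/- AntNPC. For both genes every EED-/- library was above every WT library of the same cell type. The authors' deposited table gives mean read counts in WT and EED-/- AntNPC of 19.69 and 69.4 for Cldn1 and of 9.04 and 45.11 for Cldn11. Genes tested on chromosome 3 had a median difference of 0.49 in AntNPC on the log2(FPKM + 1) scale, against 0.03 on the other autosomes. The Cldn11 difference was 0.51 ± 0.07 (SE) on that scale, which understates the change of a gene at this level, and its ratio of means was 5.26. The 7 surface ectoderm markers summed to 0.499 to 1.10 FPKM in WT AntNPC, with Krt5 at 0. In EED-/- AntNPC they summed to 12.1 to 16.7 FPKM. There Tfap2a alone had a mean of 11.5 FPKM, and 2 of the 7 markers had a mean of at least 1 FPKM. The 10 oligodendrocyte markers summed to 16.7 to 30.5 FPKM in WT AntNPC and 24.6 to 26.3 in EED-/- AntNPC. The part of those cell types in the levels of Cldn1 and Cldn11 was not tested.

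**Figure D2:**
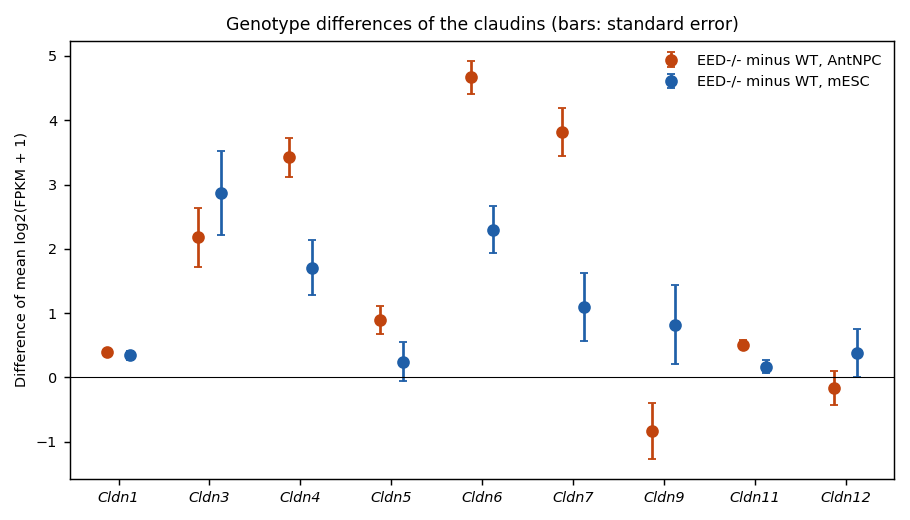
Difference between EED-/- and WT in mean log2(FPKM + 1) for the 9 claudins, in AntNPC (orange, n = 4 per genotype) and in mESC (blue, n = 2 per genotype), with bars for the standard error from limma. Cldn6 has the largest AntNPC value, 4.67, and Cldn9 is the one member far below 0 in AntNPC, at -0.83.

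Counted by overlap, 7 members were higher in every EED-/- AntNPC library than in every WT AntNPC library, Cldn12 was lower and Cldn9 overlapped. Over all 13678 genes tested, 30.4% were higher by that rule and 19.1% lower. In mESC 7 members were higher in both EED-/- libraries, none was lower, and Cldn5 and Cldn12 overlapped, where 33.2% of all genes tested were higher and 6.91% lower. The members were chosen with these contrasts known, so nothing is read from these counts. The difference between AntNPC and mESC in the genotype effect was 1.72 ± 0.52 for Cldn4, 2.37 ± 0.44 for Cldn6 and 2.72 ± 0.64 for Cldn7 on the log2(FPKM + 1) scale (SE), against -0.69 ± 0.80 for Cldn3 and -1.65 ± 0.75 for Cldn9. With 1 library left out in turn it ranged from 1.09 to 2.35 for Cldn4, from 1.79 to 2.96 for Cldn6, from 1.76 to 3.68 for Cldn7 and from -2.18 to -1.32 for Cldn9. For Cldn3 it ranged from -1.63 to 0.25 and so turned direction, the highest without EED-/- mESC replicate 1.

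Cldn4, Cldn6 and Cldn7 were lower in WT AntNPC than in WT mESC. Mean FPKM was 18.1-fold lower in WT AntNPC than in WT mESC for Cldn4, 14.6-fold lower for Cldn7 and 9.80-fold lower for Cldn6, and these 3 members did not overlap between the groups. Cldn1, Cldn11 and Cldn12 were higher in every WT AntNPC library, and Cldn3, Cldn5 and Cldn9 overlapped. Of all genes tested, 35.4% were higher and 22.3% lower in every WT AntNPC library. Between EED-/- mESC and EED-/- AntNPC mean FPKM was 5.17-fold lower for Cldn4, 3.45-fold lower for Cldn3, 2.13-fold lower for Cldn7 and 1.57-fold lower for Cldn6. These ratios leaned on EED-/- mESC replicate 1. Without it Cldn4 was 3.04-fold lower and Cldn3 1.43-fold lower, while Cldn7 (37.8 FPKM in mESC against 43.3 in AntNPC) and Cldn6 (92.2 against 96.0) turned slightly higher in AntNPC. Without replicate 2 Cldn3 was 5.46-fold and Cldn7 3.38-fold lower. There Cldn3 and Cldn4 were lower in every AntNPC library, Cldn1 and Cldn11 higher, and the other 5 overlapped, where 27.5% of all genes tested were higher and 27.7% lower. Comparisons that share a group share its libraries, so these counts are not independent of one another.

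The make-up of the claudin pool was not the same in the 4 groups. Cldn4 made up 45.2% of summed claudin FPKM in WT mESC and 43.6% in EED-/- mESC, with Cldn7 at 23.4% and 15.2% and Cldn6 at 19.3% and 27.7%. In WT AntNPC Cldn12 led with 51.3% (46.4% to 54.0% over the 4 libraries), and Cldn9 took 11.1%, though 0.865% in replicate 1. In EED-/- AntNPC Cldn6 led with 42.6% (41.9% to 43.4%), followed by Cldn4 with 20.6% and Cldn7 with 19.3%, and Cldn12 took 7.69%. The order of levels in EED-/- AntNPC was therefore Cldn6, Cldn4, Cldn7, Cldn12 and Cldn3, with Cldn12 (16.4 to 18.2 FPKM) and Cldn3 (13.6 to 17.5 FPKM) overlapping. Cldn4 and Cldn7 were also neighbours whose ranges met, at 39.8 to 49.9 and 42.2 to 45.7 FPKM.

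**Figure D3:**
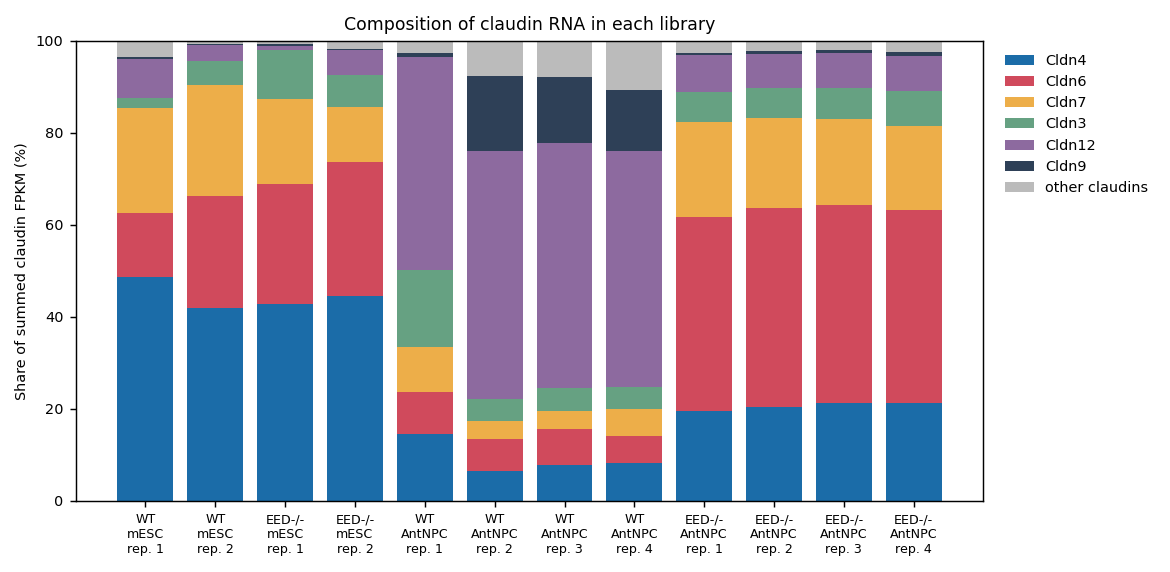
Share of the summed FPKM of 23 claudins (percent, stacked to 100) held by 6 members and by all other claudins, in each of the 12 libraries. Cldn12 fills 46.4% to 54.0% of each WT AntNPC bar and 7.41% to 8.01% of each EED-/- AntNPC bar, where Cldn6 fills 41.9% to 43.4%.

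Among the 14 other claudins, Cldn10, Cldn20 and Cldn23 reached the filter for testing, 1 FPKM or more in 2 or more libraries. In AntNPC 0 of these 3 passed an adjusted p of 0.05 in limma (Benjamini-Hochberg over all genes tested), and 2 had an unadjusted p under 0.05. Cldn10 followed Cldn9 in the libraries that stood apart, at 0.163 FPKM in WT AntNPC replicate 1 and 0.998, 1.19 and 1.34 in replicates 2, 3 and 4. In mESC Cldn23 rose by 1.61 ± 0.27 on the log2(FPKM + 1) scale (SE, limma adjusted p = 0.0016), from 0.104 and 0 FPKM to 2.82 and 1.68. Without the AntNPC libraries in the fit its limma adjusted p was 0.15.

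The partners of claudins in the junction moved in both directions in AntNPC. Of 37 tight junction partner genes tested, 15 rose and 4 fell in EED-/- AntNPC (limma, adjusted p under 0.05), with a median difference of 0.42 on the log2(FPKM + 1) scale against 0.05 over all genes. In that main fit 18.3% of all genes tested rose and 7.75% fell. A fit of the AntNPC libraries alone called 28 of the partners, of which 20 rose and 8 fell. Over all genes that fit called 6676, of which 3884 rose and 2792 fell. Genes that rose held other transmembrane proteins of the strand: occludin (Ocln) by 2.15 ± 0.24 (SE), tricellulin (Marveld2) by 2.53 ± 0.17, Marveld3 by 2.32 ± 0.15 and JAM-A (F11r) by 1.76 ± 0.21. The cytoplasmic linker cingulin (Cgn) rose by 2.03 ± 0.29, the polarity protein Crb3 by 2.54 ± 0.35 and Amot by 1.61 ± 0.32. Cgn lies on chromosome 3, where genes tested had a median difference of 0.49 in AntNPC and 0.63 in mESC. On the other autosomes that median was 0.03 and 0.27. The 4 that fell were Ildr2, by 2.63 ± 0.25 (SE), Jam2, Jam3 and Cxadr. Of these Ildr2 is an angulin of tricellular contacts, Jam2 and Jam3 are junctional adhesion molecules and Cxadr is the coxsackie and adenovirus receptor.

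ZO scaffolds hold claudins from the cytoplasmic side. Tjp1 (ZO-1) stood at 41.4 to 49.7 FPKM in WT AntNPC and 39.8 to 45.7 in EED-/- AntNPC. The difference was -0.04 ± 0.43 (SE, limma adjusted p = 0.97), with an SE pooled over the libraries of both cell types. Tjp3 (ZO-3) stood at 4.11 to 4.87 FPKM in WT and 5.07 to 10.3 in EED-/- (0.73 ± 0.25, limma adjusted p = 0.057), which passed 0.05 without EED-/- AntNPC replicate 1.

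Epithelial genes outside the tight junction were nearly all higher in EED-/- AntNPC. Of 28 epithelial junction and surface genes tested, 26 rose and Crb2 alone fell, with a median difference of 2.34 on the log2(FPKM + 1) scale, and the number called stayed between 24 and 27 when 1 library was left out. Epcam, whose protein binds Cldn7, rose from 10.4, 4.37, 4.16 and 3.98 FPKM to 104.5, 110.3, 103.1 and 105.5, by 4.08 ± 0.26 (SE, limma adjusted p = 2e-06). Cdh1 (E-cadherin) rose from 14.5, 4.10, 3.83 and 4.59 FPKM to 107.4, 105.4, 110.3 and 112.1, by 4.01 ± 0.33 (SE). The keratin Krt19 rose by 4.07 ± 0.31, Krt8 by 3.49 ± 0.25 and Krt18 by 2.98 ± 0.30. All 13 epithelial regulators tested rose, among them Esrp1 and Esrp2, which direct epithelial splicing, by 3.73 ± 0.22 and 2.27 ± 0.16 (SE). The transcription factors Tfap2a, Grhl2 and Ovol2 rose by 2.92 ± 0.18, 2.08 ± 0.18 and 1.88 ± 0.25 (SE).

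Of 7 known repressors of epithelial genes, Zeb1 and Zeb2 fell by 1.84 ± 0.29 and 1.43 ± 0.27 on the log2(FPKM + 1) scale (SE), and 4 rose. Zeb1 went from 9.24 to 12.3 FPKM to 2.23 to 2.66. Those that rose were Twist1 by 2.26 ± 0.32 (SE), Snai2, Twist2 by 1.12 ± 0.17, and Snai1 by 0.85 ± 0.21, the last lost after quantile normalization (0.39). The list was thus split, with its median at 0.85.

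In mESC 16 of the 37 tight junction partners rose and 0 fell, with a median difference of 0.78 on the log2(FPKM + 1) scale against 0.29 over all genes, and 20% of all genes tested rose and 2.73% fell. Centring each library on its median moved the all-gene median from 0.29 to -0.08, and the share of called genes that rose from 88% to 56.5%, with 10 of 11 called partners then higher. In AntNPC quantile normalization moved that share from 70.3% to 50%. At an unadjusted limma p under 0.05 there were 19 partners and 15 epithelial junction and surface genes in mESC, in either direction. A limma fit on the 4 mESC libraries alone called 0 partners and 0 epithelial genes, with 8 and 11 at an unadjusted p under 0.05. With replicate number as a block, 1925 genes were called in mESC in place of 3105.

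The partners that rose most in mESC were Amot by 2.01 ± 0.45, Cgnl1 (paracingulin) by 1.96 ± 0.40 and Marveld3 by 1.81 ± 0.21 on the log2(FPKM + 1) scale (SE). Ocln rose by 1.41 ± 0.34, Marveld2 by 1.28 ± 0.24 and Cgn by 1.51 ± 0.41, the last with a limma adjusted p of 0.072 under the replicate block and 0.12 without EED-/- mESC replicate 2. The Ocln call was lost without that library (adjusted p = 0.057) and the Marveld2 call after quantile normalization (0.14). Tjp1, Tjp3 and F11r did not pass, with adjusted p of 0.47, 0.35 and 0.055.

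Of the 28 epithelial junction and surface genes 13 rose in mESC and 0 fell, among them the keratins Krt8 (6.58 and 10.8 FPKM to 867.0 and 371.5) and Krt18 (16.5 and 17.02 to 1198 and 380.8). Krt19 rose by 3.45 ± 0.44 (SE). Epcam did not pass, at 96.8 and 85.4 FPKM in WT and 151.2 and 83.7 in EED-/- (0.31 ± 0.37, limma adjusted p = 0.64, -0.06 after centring), nor did Cdh1 (adjusted p = 0.082). Of 13 regulators 7 rose, among them Esrp2 by 2.58 ± 0.22, Esrp1 by 1.39 ± 0.32 and Tfap2a by 1.30 ± 0.25, the last lost after quantile normalization (adjusted p = 0.14). Grhl2 and Ovol2 did not pass (adjusted p = 0.23 and 0.15). Of 7 repressors Snai1 and Twist2 rose, by 1.95 ± 0.29 and 1.49 ± 0.24 (SE).

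The genotype effect itself differed between AntNPC and mESC for a share of these genes (limma interaction term, adjusted p under 0.05, 15.3% of all genes tested in either direction). It was larger in AntNPC for Epcam by 3.78 ± 0.46 (adjusted p = 0.00042), Cdh1 by 2.78 ± 0.57 (0.008), Crb3 by 2.68 ± 0.60 (0.013), Esrp1, Grhl2, Tfap2a and Marveld2. It was larger in mESC for Krt8, Krt18, Cgnl1 and Cldn23. The number of genes past the threshold for this term was 2086, and 1051 with the replicate block.

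**Figure D4:**
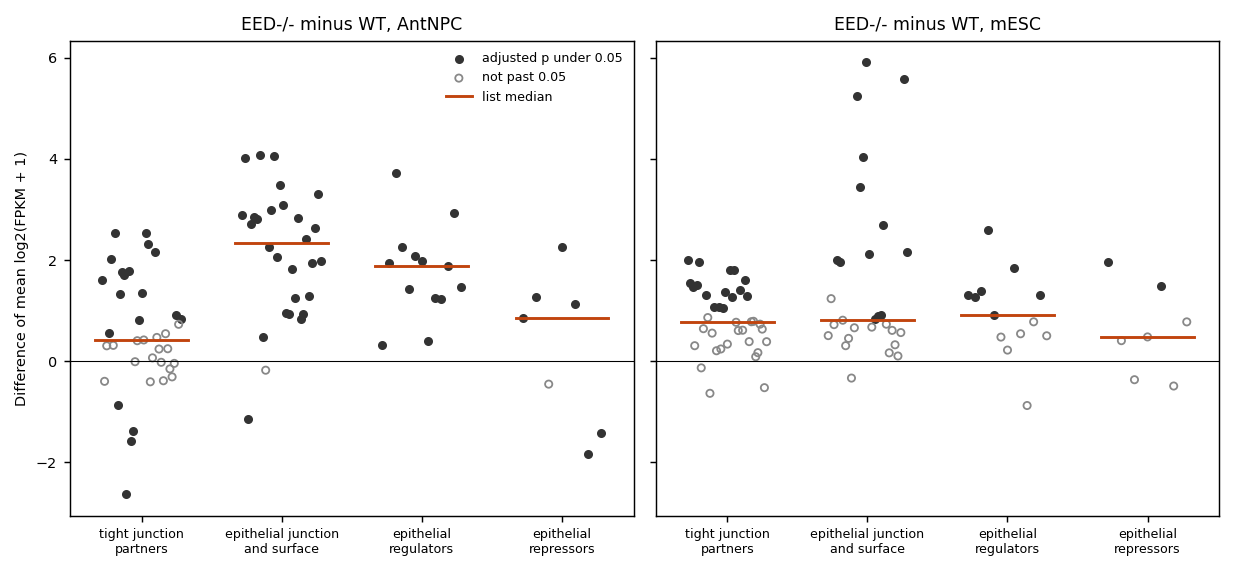
Difference between EED-/- and WT in mean log2(FPKM + 1) for the tested genes of 4 lists (37 tight junction partners, 28 epithelial junction and surface genes, 13 epithelial regulators, 7 epithelial repressors), in AntNPC on the left and mESC on the right, with filled points for limma adjusted p under 0.05 and a line at the list median. The epithelial junction and surface genes have a median of 2.34 in AntNPC and 0.82 in mESC, and the repressors lie on both sides of 0 in AntNPC.

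Marker genes of other epithelial lineages moved with these groups. The 12 trophoblast markers summed to 2.80 to 3.56 FPKM in WT AntNPC, with Rhox4b at 0, and to 40.1 to 51.3 in EED-/- AntNPC, with Tpbpa at 0, and in mESC to 20.9 to 37.9 and 188.0 to 321.9. The 15 visceral and parietal endoderm markers summed to 83.6 to 108.8 and 210.6 to 301.8 FPKM in AntNPC and to 116.8 to 132.7 and 559.4 to 664.5 in mESC. Trophoblast and stem cells are known to express Cldn4, Cldn6 and Cldn7. The part of these lineages, and of remaining stem cells, in the claudin and epithelial results was not tested.

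Of 50 genes within 100 kb of a member, 41 were tested. In AntNPC 6 rose (14.6%, against 18.3% of all genes tested) and 1 fell, and in mESC 8 rose (19.5%, against 20%) and 1 fell. At the Cldn6 and Cldn9 locus Tnfrsf12a, a TWEAK receptor gene 1781 bases from Cldn6, rose in AntNPC by 2.51 ± 0.34 on the log2(FPKM + 1) scale (SE, limma adjusted p = 0.00023), from 1.24, 1.95, 2.04 and 1.69 FPKM to 13.6, 14.6, 14.9 and 14.7. In mESC it rose by 1.72 ± 0.48 (adjusted p = 0.024), a call lost when libraries were centred, with the replicate block and without either WT replicate 1 or EED-/- replicate 1. Hcfc1r1 and the metalloproteinase gene Mmp25 rose in AntNPC by 1.46 ± 0.30 and 1.11 ± 0.16. At the locus of Cldn3 and Cldn4, which lie 39280 bases apart, no other tested neighbour passed in AntNPC, with limma adjusted p from 0.16 for Wbscr27 to 0.94 for Vps37d.

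Across the 12 libraries the genes whose log2(FPKM + 1) followed a member most closely were named by Pearson's r, as a description over 4 groups that share their libraries. Cldn6 was followed by Cdkn2a (r = 0.994), Arl6ip5 (r = 0.994) and Rltpr (r = 0.989). Cdkn2a, a cell cycle inhibitor locus, had means of 18.5, 90.0, 1.05 and 85.7 FPKM in WT mESC, EED-/- mESC, WT AntNPC and EED-/- AntNPC. Cldn7 was followed by Anxa4, F11r (r = 0.989) and Capg, and Cldn4 by A4galt (r = 0.993), Prss16 and Them6. Among the members themselves r was 0.969 for Cldn4 with Cldn7, 0.966 for Cldn6 with Cldn7 and 0.919 for Cldn4 with Cldn6, while Cldn3 reached 0.892 with Cldn6. Cldn1 and Cldn11, both under 1 FPKM, had r = 0.925. Cldn9 had its closest gene in Pcp4l1 (r = 0.962) and was at -0.470 with Cldn6, and Cldn12 had its closest in Zfp318 (r = 0.993).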

How the data were processed

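Polyadenylated RNA of 12 libraries was measured. The authors deposited FPKM per gene and library, made with FastQC, SAMtools, TopHat2 and Cufflinks on GRCm38 (mm10), with DESeq2 listed for 8 libraries, per the submitters' processing notes. No source used here gives their versions. The unit FPKM was read from these notes and the deposited values, since no header names it. The authors' mean read counts in AntNPC are a normalized signal from the same deposited table, and its deposited p-value column was not used. All per-sample columns were used. Depth in reads is unknown, so no counting interval is given.

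The 13678 genes with 1 FPKM or more in 2 or more libraries were fitted on log2(FPKM + 1) with limma 3.58.1 (trend, R 4.3.3). The fit was 1 model of 4 group means over all 12 libraries, two-sided, Benjamini-Hochberg over all genes tested. The test was checked on simulated data. These gave each gene the same spread in all groups, so the check does not cover groups of unequal spread. Of the members 7 reached the filter. Cldn1 and Cldn11 did not, and their differences come from the same fit without it. Members and lists were chosen with earlier results of these data known, so members carry no p-value. Named from each list were 11 fixed genes, the 3 largest changes past the threshold per genotype comparison, and for each member the 3 genes most correlated with it and genes within 100 kb. Some genes this rule names are not reported here. Jam2, Jam3, Cxadr, Crb2 and Snai2, and the neighbours singled out, were named after their values were seen. Cldn25 and Cldn26 of the table are Cldnd1 and Tmem114 by Ensembl ID and were not counted as claudins. Positions come from GENCODE M21.

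Deviations of same-numbered AntNPC libraries from their group means correlated at 0.562, 0.318, 0.422 and 0.332, which meets the rule used for pairing, a correlation over 0.1 in every same-numbered pair. The numbers 2, 3 and 4 were not told apart by it, since differently numbered pairs among them correlated at 0.332 to 0.404, and replicate 1 of one genotype correlated with replicates 2 to 4 of the other at -0.481 to -0.43. In mESC the correlation was -0.67. The main fit carried no replicate block, so its standard errors and p-values do not use the pairing of AntNPC libraries. Alternatives were the pseudocount, the filter, quantile normalization, median centring, the replicate block, fits of the compared groups alone and leaving out each library.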

Additional observations from a re-analysis of the deposited data

Results flagged for a closer look

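In groups of 4 libraries, a value was singled out when its gap to the nearest library, as a share of the group's range, exceeded Dixon's 95% critical value, which chance alone does in about 1 in 20 groups. In WT AntNPC replicate 1 this held for Cldn3 (7.81 FPKM), Cldn4 (6.77), Cldn12 (21.6), F11r (15.0), Epcam (10.4), Cdh1 (14.5), Esrp1 (3.13), Twist1 (5.97), Zeb2 (32.9) and Cgnl1 (5.95), each above the other 3 libraries, and for Zeb1 (9.24), below them. EED-/- AntNPC replicate 1 lay below the other 3 in Ovol2 (1.86 FPKM), Crb3 (11.98) and Krt18 (123.9). Cldn23 stood apart in WT AntNPC replicate 4 (1.04 FPKM) and Krt8 in WT AntNPC replicate 3 (14.8).

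The genotype effect differed between AntNPC and mESC by limma's interaction term for 13 named genes that are not members. On the log2(FPKM + 1) scale the effect was larger in AntNPC for Epcam by 3.78, Cdh1 by 2.78, Crb3 by 2.68, Esrp1 by 2.34, Tfap2a by 1.62, Grhl2 by 1.601 and Marveld2 by 1.26. The AntNPC effect minus the mESC effect was -3.19 for Ildr2, -2.42 for Krt8, -2.27 for Krt18, -2.21 for Zeb2, -1.65 for Cgnl1 and -1.12 for Cldn23. Ildr2 and Zeb2 fell in AntNPC and did not pass in mESC, where their differences were 0.55 and 0.78.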

How the results depend on the processing

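In AntNPC 3567 genes were called, and 2652 with the replicate block over all 12 libraries. A fit of the AntNPC libraries alone called 6676, and 7189 with the replicate block, an alternative added after seeing the data. Leaving out each library in turn gave 2808 to 4927. In mESC 3105 genes were called, 1925 with the replicate block, 1 in a fit of the 4 mESC libraries alone (1449 at an unadjusted p under 0.05), and 2396 to 4960 with a library left out, the highest without WT mESC replicate 2. That fit called 0 tight junction partners and 0 epithelial junction and surface genes in mESC. Between mESC and AntNPC in EED-/-, 4245 genes were called, 2321 with the block, and 2206 to 6424 with a library left out, the lowest without EED-/- mESC replicate 1. The interaction term had 2086 genes, 1346 at a filter of 5 FPKM, 1051 with the block, and 1495 to 4243 with a library left out, the highest without WT mESC replicate 2. Crossing the mESC numbers, added after seeing the data because the same numbers deviated in opposite directions, gave 3411, 2785 and 1702 genes for AntNPC, mESC and the interaction. Among the genes named, the block ended 2 mESC calls, Cgn and Tnfrsf12a. The cause of these shifts was not tested.

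Signs turned for genes that were not called. With each library left out, the mESC difference ranged from -0.38 to 1.84 for Tjp1 (below 0 without WT replicate 2 or EED-/- replicate 2), -0.94 to 0.67 for Crb3, -1.11 to 0.12 for Zeb1, -0.12 to 0.73 for Epcam and -0.13 to 1.43 for Hcfc1r1 (the last 2 below 0 without EED-/- replicate 1). The AntNPC difference of Tjp1 ranged from -0.083 to 0.0032. Epcam in mESC was -0.059 after centring. Quantile normalization gave -0.11 for Twist1 and -0.098 for Mmp25 in mESC and -0.024 for Cldn23 in AntNPC. Depth in reads is unknown, so the precision of Cldn1, Cldn5 and Cldn11 cannot be given.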

Other observations

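Among the claudins that are not members, Cldn2 and Cldn8 fall below the FPKM filter and differ in the authors' mean read counts. In the authors' deposited table Cldn2, a claudin of leaky epithelia, has a mean read count of 1.25 in WT AntNPC and 40.15 in EED-/- AntNPC, and Cldn8, of the distal nephron and colon, has 0 and 28.74. Their highest FPKM in any library were 0.566 and 0.447. Cldn10, which reached the filter, goes the other way in the authors' deposited table, from a mean read count of 91.25 in WT to 24.18 in EED-/-.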
